A study of Homo sapiens with 8 samples.

Results

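The BCL2 family genes described here are 10 genes whose proteins decide whether a cell survives or dies through its mitochondria. They are BCL2L1, MCL1, BCL2, BCL2L12, BAX, BAK1, BID, BAD, BCL2L11 and BIK. They were chosen by name, and each was followed as the sum of its transcripts' counts, 10 genes of 17309 in the count table. Poly(A) RNA was sequenced from SW480 and DLD-1 cells, which are established human colorectal cancer lines, labelled wild type (WT) in genotype. The study itself describes both lines as p53 mutant. Cells of each line received a lentivirus carrying a control hairpin (shControl) or a hairpin against NAT10 (shNAT10), the enzyme that places N4-acetylcytidine on RNA. This made 4 groups of 2 libraries each, 8 libraries in all. The question was which of these genes differ in mRNA level once NAT10 is knocked down, and how the lines differ before that. Each line is a single cancer line under a constant hairpin, the time between infection and harvest is not given in the labels, and only 1 shNAT10 group per line was sequenced. Nothing in the labels says that the libraries of a group came from separate cultures beyond calling them biological replicates. The p-values rest on the spread between these libraries, estimated over all 4 groups together and drawn towards that of other genes.

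In healthy and cancerous colon epithelium, guardian proteins of this family sit on the outer mitochondrial membrane and hold the pore formers in check. BCL-XL (from BCL2L1), MCL-1 and BCL-2 are guardians, BAX and BAK (from BAK1) form the pore, and the BH3-only proteins BID, BAD, BIM (from BCL2L11) and BIK either block guardians or activate pore formers. An open pore releases cytochrome c, which starts the caspase cascade. BCL-XL is also one of the proteins that the study measured by western blot, among genes that it places downstream of β-catenin and c-Myc. The study reports less BCL-XL protein after NAT10 knockdown. The values here are of mRNA and not of protein. In bulk RNA, fewer cells of a type and less RNA per cell cannot be told apart.

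The 19-base NAT10 targets of the hairpins are shown because they define the knockdown to which every value below refers. The labels do not say which of the hairpins the sequenced libraries carried. Both targets lie in the coding sequence of NAT10 (chr11:34105602-34147670, GRCh38, plus strand), and both cross an exon junction of the 29-exon transcript ENST00000257829.7. The first has 1 base in exon 8, at 34118503, and the rest in exon 9, at 34122459-34122476. The second has 13 bases in exon 26, at 34141805-34141817, and the rest in exon 27, at 34142275-34142280.
shNAT10-1: ggccaaagctgtcttgaaa
shNAT10-2: cagtgacgacctagatgaa
No member carried either target whole. The longest run of target bases in a member was 10, in BID for shNAT10-1, and 7.96% of 13485 genes with a transcript sequence held a run as long.

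The libraries held 15147805 to 17271336 estimated counts, and 13619 genes passed the filter on low counts, including all 10 members. Levels are given as CPM, a library's count scaled to a common total with TMM normalization, unless another scale is named. NAT10 itself stood at 122.3 and 122.5 CPM in SW480 shControl and at only 23.6 and 27.9 after knockdown. In DLD-1 it stood at 121.1 and 120.5 CPM in shControl and at 59.0 and 54.4 in shNAT10. These are log2 fold changes of -2.25 ± 0.09 (SE) and -1.09 ± 0.08, both called, so the knockdown was present in both lines and smaller in DLD-1. The SW480 shNAT10 libraries stood apart from each other more than the 2 libraries of any other group. Their mean chi-square per gene was 9.77, against 3.32 to 4.59 within the other groups. Replicate 2 lay nearer to the SW480 shControl libraries, at 5.225 and 6.536, than to replicate 1. Replicate 1 lay at 12.976 and 20.697 from the same controls. All 7 epithelial markers were detected in every library, with 3200 to 3865 CPM in sum in SW480 and 7518 to 8076 in DLD-1. Of 5 markers of other cell types, PTPRC was absent from the table, CD3E, PECAM1 and ALB had 0 to 5 counts, and COL1A1 had 28 to 39 counts in SW480 and 2 to 10 in DLD-1.

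Levels of different genes were compared per transcript length, as FPKM summed over transcripts. In SW480 shControl cells the guardian BCL2L1 (chr20:31664452-31723989, minus strand) was the highest member by this measure, at 207.7 and 205.3 FPKM. The pore former BAX followed at 105.9 and 107.8 FPKM, MCL1 at 57.6 and 57.8, BAD at 61.2 and 52.7 and BID at 53.6 and 49.1. The range of BAD overlapped those of MCL1 and BID, so that its place in the order was not separated by the spread. BCL2L12, BAK1 and BIK came next, with means of 39.9 ± 2.52, 21.8 ± 0.757 and 15.1 ± 1.95 FPKM (SD, n = 2). BCL2L11 had 4.46 ± 0.205 FPKM and BCL2 was lowest at 1.34 ± 0.205 FPKM, so the family's founding gene was the least abundant of the 10 in SW480.

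In DLD-1 shControl cells the same FPKM measure put BAX (89.0 to 92.0) and BCL2L1 (82.6 to 92.9) level, with ranges that overlapped. MCL1 followed at 53.8 ± 0.948 FPKM (SD, n = 2), then BCL2L12 at 46.6 ± 1.23, BAD at 44.7 ± 0.785 and BID at 40.5 ± 1.10. BIK stood at 34.6 ± 5.47 FPKM and above BAK1, at 13.3 ± 0.460, which is the opposite order to SW480. BCL2L11 was at 4.38 ± 0.0707 FPKM and BCL2 again lowest, at 0.185 ± 0.0354. Neighbours other than BAX and BCL2L1 did not overlap in that order, although each range rests on 2 libraries.

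**Figure D1:**
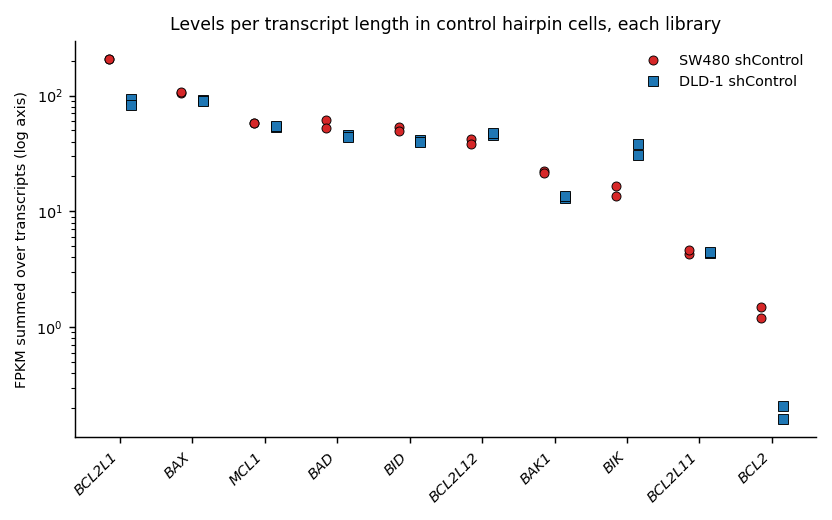
FPKM summed over transcripts (log axis) of the 10 genes in each shControl library, ordered by their mean in SW480; circles are SW480 and squares DLD-1, 2 libraries each. BCL2L1 leads in SW480 at about 206.5 FPKM and lies at 82.6 to 92.9 in DLD-1, while BCL2 is lowest in both lines.

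The shControl groups of both lines were then compared gene by gene. Of the 10 members, 7 had an adjusted p under 0.05 (edgeR quasi-likelihood test, Benjamini-Hochberg over 13619 genes). This share is near the background, since 73.8% of all tested genes were called between the lines, so the count says nothing particular about the family. The median log2 fold change was -0.21 over the members and -0.01 over all genes tested. Any of these differences is one between 2 cell lines and not between 2 conditions.

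Among the guardians, BCL2L1 had 453.5 and 442.1 CPM in SW480 shControl and 204.3 and 182.5 in DLD-1 shControl. The DLD-1 libraries lay below the SW480 libraries, and the level was lower in DLD-1 by a log2 fold change of -1.21 ± 0.07 (SE). BCL2 (chr18:63123346-63320128, minus strand), the guardian named for B-cell lymphoma, was counted 89 and 99 times in SW480 shControl but 8 and 10 times in DLD-1 shControl. The ratio of SW480 to DLD-1 was 10.4 with a 95% interval from exact binomial counting of 6.42 to 17.98, which covers counting error only. The fitted log2 fold change of BCL2 was -3.36 ± 0.27. MCL1 (chr1:150574551-150579738, minus strand), a short-lived guardian, was not called, at 211.6 and 209.9 CPM in SW480 against 195.9 and 199.7 in DLD-1. BCL2L12 (chr19:49665142-49673916, plus strand), a proline-rich family member, was higher in DLD-1 by 0.24 ± 0.09 on the log2 scale, with 57.5 to 64.1 CPM against 71.8 to 72.2. Reads were divided between BCL2L12 and the overlapping gene IRF3, as described below. IRF3 had 1494.63 and 1364.15 counts in SW480 shControl and fewer, 1310.64 and 1169.53, in DLD-1 shControl. What part this division has in the BCL2L12 value was not tested.

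Of the pore formers, BAK1 (chr6:33572547-33580293, minus strand) had 42.3 and 39.9 CPM in SW480 and 24.9 and 26.0 in DLD-1. It was lower in DLD-1 by a log2 fold change of -0.69 ± 0.08 (SE, adjusted p = 2.55e-06 in edgeR). BAX (chr19:48954815-48961798, plus strand) was not called, with 65.2 and 67.9 CPM in SW480 and 60.9 and 61.2 in DLD-1. The BH3-only genes BID (chr22:17734138-17774770, minus strand), which caspase-8 cleaves, and BAD (chr11:64269830-64284704, minus strand), which survival kinases phosphorylate, were lower in DLD-1. Their log2 fold changes were -0.33 ± 0.08 and -0.30 ± 0.12. BIK (chr22:43110748-43129712, plus strand), a BH3-only gene of the endoplasmic reticulum, was higher in DLD-1 by 1.23 ± 0.15, at 26.3 and 21.1 CPM against 11.02 and 9.13. BCL2L11 (chr2:111119378-111168447, plus strand), the gene of BIM, was not called, at 17.5 and 18.8 CPM in SW480 against 20.4 and 20.2 in DLD-1. The call of BAD was lost without SW480 shControl replicate 1 (log2 fold change -0.18, adjusted p = 0.288) and without each of the DLD-1 libraries (adjusted p between 0.0512 and 0.124). That of BCL2L12 was lost without SW480 shControl replicate 2 (adjusted p = 0.184) and without either DLD-1 shControl library (0.0681 and 0.0711).

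**Figure D2:**
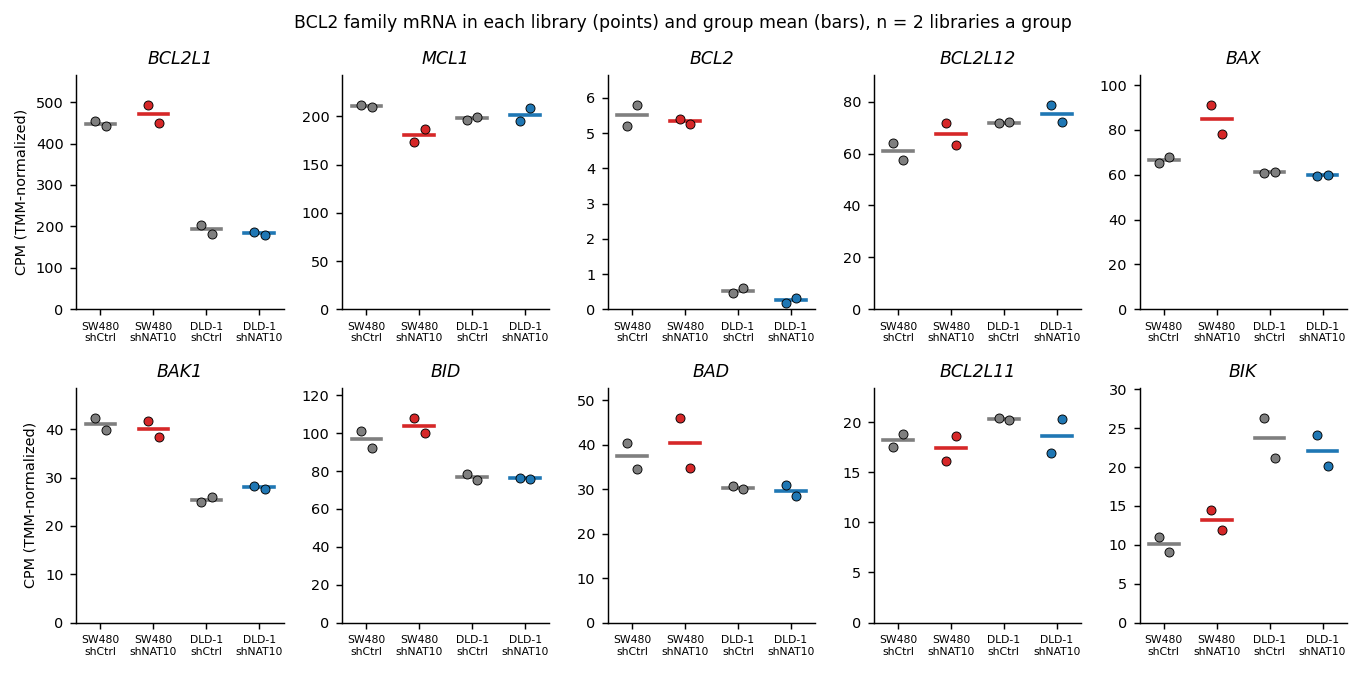
TMM-normalized CPM of each gene in every library; the points are the libraries, the bars the group means (n = 2), and each panel has its own axis from 0. BCL2L1, BCL2, BAK1 and BID lie lower in both DLD-1 groups, BIK lies higher there, and the SW480 shNAT10 libraries lie above SW480 shControl for BAX and below it for MCL1.

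After NAT10 knockdown in SW480, 1 of the 10 members was called, with 1.68% of all tested genes called in this comparison. That member was BAX, which rose. It had 65.2 and 67.9 CPM in shControl and 91.0 and 78.3 in shNAT10, so both knockdown libraries lay above both control libraries. The group means were 66.5 ± 1.89 and 84.7 ± 8.98 CPM (SD, n = 2). The log2 fold change was 0.35 ± 0.08 (SE), a 1.27-fold difference, with an adjusted p of 0.0435 in edgeR. The call is close to its threshold: it was lost when any of 7 of the 8 libraries was left out in turn, the exception being SW480 shNAT10 replicate 2. Adjusted p then ran from 0.0777 to 0.314, and it was 0.00252 without that replicate, when 2162 genes were called in all. The direction was upward in all 16 alternatives that gave a value, between 0.24 and 0.45. The SD of BAX was only 0.22 and 0.24 CPM in the DLD-1 groups, which enter the pooled spread behind this p-value. With SW480 fitted alone, the log2 fold change was 0.36 and the adjusted p 0.173 (edgeR), which is not a call.

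MCL1 had 211.6 and 209.9 CPM in SW480 shControl and 173.7 and 186.7 in shNAT10, with no overlap between groups. Its log2 fold change was -0.23 ± 0.06 (SE), and with an adjusted p of 0.0923 in edgeR it was not called. The value was negative in all 18 alternatives, and the call appeared without SW480 shNAT10 replicate 2 (adjusted p = 0.0157). BIK had 11.02 and 9.13 CPM in shControl and 14.5 and 11.9 in shNAT10, which is a log2 fold change of 0.39 ± 0.16. Its groups did not overlap either, but they rest on 156 to 246 counts and the adjusted p was 0.201, so BIK was not called. With 2 libraries a group, a lack of overlap says little by itself. The share of all tested genes without overlap was not counted. By the limits on fold change and unadjusted p that the study used for its RNA-seq (above 1.2 or below 0.83, p under 0.05), BAX and BIK passed, 2 of 10, where 9.08% of all tested genes passed.

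Like MCL1, the other 7 members passed neither test in SW480. BCL2L1 had 453.5 and 442.1 CPM in shControl and 492.6 and 449.2 in shNAT10, ranges that overlapped, with a log2 fold change of 0.07 ± 0.07 (SE). BCL2 had 89 and 99 counts against 92 and 90. The log2 fold changes of BCL2, BCL2L12, BAK1, BID, BAD and BCL2L11 lay between -0.06 and 0.15, with adjusted p from 0.340 to 0.914 (edgeR). Among BH3-only genes, BAD spread most between the knockdown libraries, at 45.9 and 34.7 CPM. The median over the 10 members was 0.09, and that over all genes tested was -0.01.

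**Figure D3:**
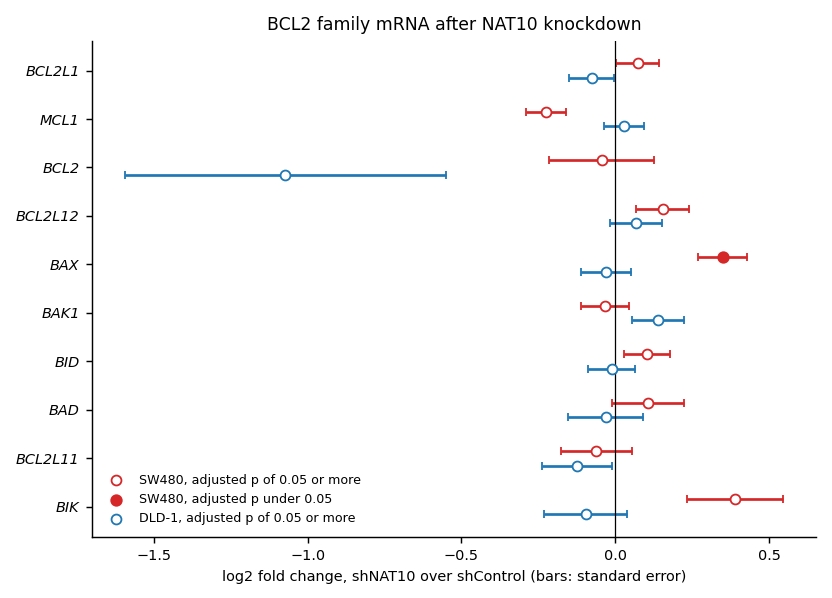
Log2 fold change of shNAT10 over shControl for each gene, with its standard error, in SW480 (red) and DLD-1 (blue); a filled point has an adjusted p under 0.05. BAX in SW480, at 0.35, is the filled point, and BCL2 in DLD-1 has the widest error because it had 3 to 10 counts there.

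Fold changes in SW480 ran with transcript length and base composition across all genes, and these values stand beside the members. The median log2 fold change was 0.14 in the decile of genes with the shortest transcripts and -0.14 in the longest decile. It was -0.12 in the decile lowest in GC content and 0.13 in the highest. In DLD-1 the same medians lay between -0.04 and 0.05. BAX has a 1358-base reference transcript and BIK one of 953 bases, both in the shortest decile, and MCL1 has one of 3932 bases in the 6th. With a loess correction for length, the SW480 value of BAX was 0.24 with an adjusted p of 0.0643 in edgeR, which is not a call. With a correction for GC content it was 0.29, with an adjusted p of 0.0344. MCL1 was at -0.18 under either correction and BIK at 0.25 with that for length and 0.36 with that for GC content. What part the trend has in these values was not tested.

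After NAT10 knockdown in DLD-1, none of the 10 members was called by the edgeR test, and none had an unadjusted p under 0.05. DESeq2 called 0 of them as well. The background there was 2 of 13619 genes, or 0.0147%, with 812 genes at an unadjusted p under 0.05. Under the limits of the study, 0 of 10 members passed, against 2.68% of all tested genes. BAX had 60.9 and 61.2 CPM in shControl and 59.6 and 59.9 in shNAT10, a log2 fold change of -0.03 ± 0.08 (SE). Even at this small value the BAX groups did not overlap, with shNAT10 the lower. MCL1 had 195.9 and 199.7 CPM in shControl and 194.9 and 208.5 in shNAT10, and BIK had 26.3 and 21.1 against 24.2 and 20.1. BCL2L1 had 204.3 and 182.5 CPM against 186.9 and 179.9, at -0.08 ± 0.07.

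The largest difference by size in DLD-1 was that of BCL2, with 8 and 10 counts before knockdown and 3 and 5 counts after it. These libraries did not overlap, but the ratio of shNAT10 to shControl, 0.470, had a 95% exact counting interval from 0.177 to 1.14. The fitted log2 fold change was -1.07 ± 0.52 (SE) and the adjusted p 0.863 (edgeR). A change of this size in BCL2 was thus within the counting error at this depth. BAK1 had 24.9 and 26.0 CPM in shControl and 28.3 and 27.7 in shNAT10, a log2 fold change of 0.14 ± 0.08, also without overlap. BCL2L12, BID, BAD and BCL2L11 lay between -0.12 and 0.07. The median over the members was -0.03 and that over all genes tested was 0.

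The shNAT10 effects of the lines were compared by the interaction term of the same model. None of the 10 members was called in this test by edgeR or by DESeq2, where 0.00734% of all tested genes, which is NAT10 alone, were. At an unadjusted p under 0.05 stood 3 of 10 members, where 9.38% of all tested genes did. The effect on BAX in DLD-1 minus that in SW480 was -0.38 ± 0.11 (SE, unadjusted p = 0.00515 and adjusted p = 0.472 in edgeR). That on MCL1 was 0.25 ± 0.09 and that on BIK -0.49 ± 0.21, with adjusted p of 0.488 and 0.497. BAX was called in SW480 and not in DLD-1, and a difference between the lines was not shown at the adjusted threshold. Without SW480 shNAT10 replicate 2, the difference for BAX was -0.48 with an adjusted p of 0.0319.

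Averaged over both lines, again 0 of 10 members were called by edgeR or by DESeq2, with 1.02% of all tested genes called. BAX and MCL1 had an unadjusted p under 0.05, as did 14.5% of all tested genes, at 0.16 ± 0.06 (SE) and -0.10 ± 0.05 on the log2 scale, with adjusted p of 0.228 and 0.339. Without SW480 shNAT10 replicate 2 the mean effect on BAX was 0.21 with an adjusted p of 0.0207. BCL2L1 was at -0.0020 ± 0.05, the value nearest to 0 of the members.

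The pore former and the guardian can also be read against each other inside a library, where the scaling of libraries cancels. The trend with transcript length in SW480 does not cancel, since BAX and MCL1 lie in different deciles of length. BAX had 0.308 and 0.323 counts per MCL1 count in SW480 shControl, against 0.524 and 0.420 after knockdown. In DLD-1 the same ratio was 0.311 and 0.306 in shControl and 0.306 and 0.288 in shNAT10. The SW480 knockdown libraries were thus above the other 6 libraries. BAX per BCL2L1 count was 0.144 and 0.154 in SW480 shControl, against 0.185 and 0.174 after knockdown, and 0.298 to 0.335 over the DLD-1 libraries. That ratio, unlike the first, separates the cell lines, since BCL2L1 was lower in DLD-1. These ratios follow from values already tested above, with BAX higher and MCL1 lower in SW480 shNAT10, and carry no test of their own.

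Transcripts of the members were looked at for the splice forms with opposite roles. The reads were 50 bases long from a single end and the counting program divided them among transcripts, so these are estimates with no test. BCL-XS, the short form of BCL2L1 that opposes BCL-XL (NM_001191.4), took 16.5% to 20.2% of BCL2L1 counts in SW480 shControl, against 16.7% to 20.1% after knockdown. In DLD-1 it took 14.6% to 19.6% in shControl and 13.1% to 14.8% in shNAT10. The replicates of SW480 shControl alone spanned the range of all SW480 libraries. A transcript of the long form, NM_138578.3, was assigned 784.64 and 255.04 counts in the SW480 shControl libraries but 0.01 and 157.68 in DLD-1 shControl, so its share cannot be read between groups.

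MCL1 was more evenly assigned. Its long form (NM_021960.5), the guardian, took 93.5% to 97.8% of MCL1 counts in every library. The short form (NM_182763.2), which lacks the membrane anchor, was assigned 141.49 and 140.41 counts under SW480 shControl, 105.98 and 90.75 in SW480 shNAT10, 58.78 and 75.21 in DLD-1 shControl, and 133.72 and 44.98 in DLD-1 shNAT10. BAX alpha (NM_138761.4) was assigned 524.21 and 493.84 counts in the SW480 controls, against 725.67 and 563.73 after knockdown. BAX beta (NM_004324.4) had 292.47 and 415.16 counts against 483.84 and 432.17. Both forms were thus higher in the knockdown libraries, and alpha kept 42.1% to 47.1% of BAX counts in SW480. In DLD-1 shControl alpha was assigned 404.92 and 417.94 counts and beta 371.61 and 462.71. In DLD-1 shNAT10 alpha was assigned 351.99 and 322.81 counts and beta 409.25 and 329.21, so that beta lay above alpha in 3 of 4 DLD-1 libraries and in 0 of 4 SW480 libraries. BCL2L11 was spread over 25 transcripts, and its leading one took 7.51% to 39.3% of the gene's counts depending on the library.

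For the other 9 members the gene total was a whole number within 0.05 in all 8 libraries, but for BCL2L12 in 1 library. BCL2L12 shares 734 exonic bases with IRF3, on the opposite strand, at chr19:49665142-49665875 (GENCODE v29), and the sources used here do not say that strand was used in counting. In SW480 shControl replicate 1, BCL2L12 was assigned 1094.35 counts and IRF3 1494.63. In DLD-1 shControl replicate 1 they were assigned 1222.36 and 1310.64. In both libraries the fractions add up to a whole number within 0.05, so reads were divided between these genes. The counts of BCL2L12 may therefore hold IRF3 reads or lack reads of BCL2L12. BCL2L1 overlaps the antisense genes ABALON and AL117381.1, and BCL2 overlaps the antisense gene AC022726.2. BAD overlaps GPR137, BAK1 overlaps GGNBP1 and BCL2L11 overlaps MIR4435-2HG, each on the opposite strand. These are overlaps of whole gene spans, and whether exons are shared was not looked at. BAX and BIK overlap no other annotated gene.

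The start region of BAX is shown because BAX was the member called after knockdown. RefSeq windows from 250 bases before to 50 after a gene's start (GRCh38.p14) were found for 8 of the 10 members, without MCL1 and BIK. They were searched on both strands for the E-box CACGTG of MYC-type factors, the TATA box TATAAA, the box named CCAAT, the GC box GGGCGG of SP1-type factors and the TCF motif CTTTGAT, none of which contains another. The BAX window held 4 copies of CACGTG, at 138, 93, 45 and 14 bases before the RefSeq start. At least 1 copy stood in 9.19% of 16185 windows of tested genes and at least 4 in 0.025%. Of the other members, BID held 1 copy in 2 of its windows. The stretch chr19:48954625-48954844 on the plus strand, with its 3 copies of CACGTG in capitals, reads as follows.
BAX: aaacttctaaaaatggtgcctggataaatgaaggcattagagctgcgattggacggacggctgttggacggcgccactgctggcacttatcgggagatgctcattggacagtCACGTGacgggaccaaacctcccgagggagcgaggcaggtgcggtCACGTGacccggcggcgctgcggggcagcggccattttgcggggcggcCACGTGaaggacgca
CTTTGAT was found in 1 window of the members, that of BAK1, and in 1.62% of all windows. TATAAA was found in 1 of the BCL2L1 windows, against 6.68% of all. Among members with a window, GGGCGG stood in at least 1 window of each but BCL2. CCAAT stood in those of BAD, BAK1, BAX and BCL2L11. Of all windows, 64.9% held GGGCGG and 34.3% held CCAAT. Some members have several windows, so a count by gene cannot be set against these shares by window. No binding was measured in these libraries, and a match is only a match of letters.

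The rest of the pathway was read from 4 lists. Among 13 other BCL2 family genes, BCL2A1, BCL2L10 and BNIP3 had at most 4 counts in any library and were not tested. None of the remaining 10 was called after knockdown in SW480, in DLD-1, on average or in the difference by edgeR, and none by DESeq2. DESeq2 gave an adjusted p for only 6, 7, 7 and 4 of the 10 in this order. At an unadjusted p under 0.05 in edgeR were 2 of the 10 in SW480, 1 in DLD-1, 3 on average and 1 in the difference. The shares of all tested genes at that limit were 19.25%, 5.96%, 14.5% and 9.38% in this order. The smallest adjusted p in SW480 was 0.0773, for BNIP3L, a mitophagy receptor, at -0.31 ± 0.08 (SE, edgeR). The BH3-only genes PMAIP1 (NOXA) and BBC3 (PUMA) stood at -0.22 ± 0.08 and 0.28 ± 0.13. HRK was counted 6 and 4 times in DLD-1 shControl, against 1 and 0 times in shNAT10, and was not called there. The list medians were -0.01 in SW480 and -0.05 in DLD-1.

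Of 15 genes of the caspase cascade and its inhibitors, 1 was called in SW480 and 0 in DLD-1, by edgeR and by DESeq2. DESeq2 gave an adjusted p for 12 of the 15 in SW480 and for all 15 in DLD-1. At an unadjusted p under 0.05 were 6 of 15 in SW480 and 2 of 15 in DLD-1, against 19.25% and 5.96% of all tested genes. The gene was BIRC3 (cIAP2), a ubiquitin ligase that restrains cell death signalling, which fell. The SW480 controls held 1017 and 1002 counts of it and the knockdown libraries 672 and 754, a log2 fold change of -0.50 ± 0.08 (SE, adjusted p = 0.00721). The effect in DLD-1 was -0.05 ± 0.07, and the difference between the lines, 0.45 ± 0.11, had an adjusted p of 0.398. The SW480 call of BIRC3 was lost without either SW480 shControl library, replicate 1 (adjusted p = 0.0861) or replicate 2 (0.0931). It was also lost with each cell line alone (0.0627) and with limma on the 7 libraries with complete FPKM (0.0544). The mean effect over both lines was -0.28 ± 0.05 with an adjusted p of 0.0302. That call was lost under 12 of 17 alternatives, where adjusted p ran up to 0.220. The loss followed leaving out each library in turn except SW480 shNAT10 replicate 2, and the adjusted p without SW480 shNAT10 replicate 1, the lowest of these, was 0.0567. Cytochrome c (CYCS) was at 0.03 ± 0.07 in SW480 and was not called. The median was 0.0031 in SW480 and -0.04 in DLD-1.

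None of 11 death receptor genes and none of 8 partners or turnover factors of the family proteins was called in either line by edgeR. At an unadjusted p under 0.05 were 2 of 11 and 2 of 8 genes in SW480, against 19.25% of all tested genes, and 2 and 0 genes in DLD-1, against 5.96%. DESeq2 called none of either list, but it gave an adjusted p for only 7 of 11 and 7 of 8 genes in SW480. In DLD-1 it gave one for 9 of 11 and 8 of 8. CFLAR (FLIP), which blocks caspase-8, was at -0.22 ± 0.07 (SE) in SW480, and FADD, the receptor adaptor, at 0.23 ± 0.09. HUWE1 and USP9X, the ligase that marks MCL-1 for destruction and the enzyme that removes the mark, were at -0.39 ± 0.11 and -0.20 ± 0.07. The medians were -0.04 and 0.12 for the receptor list and -0.10 and -0.03 for the partner list, in SW480 and DLD-1.

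**Figure D4:**
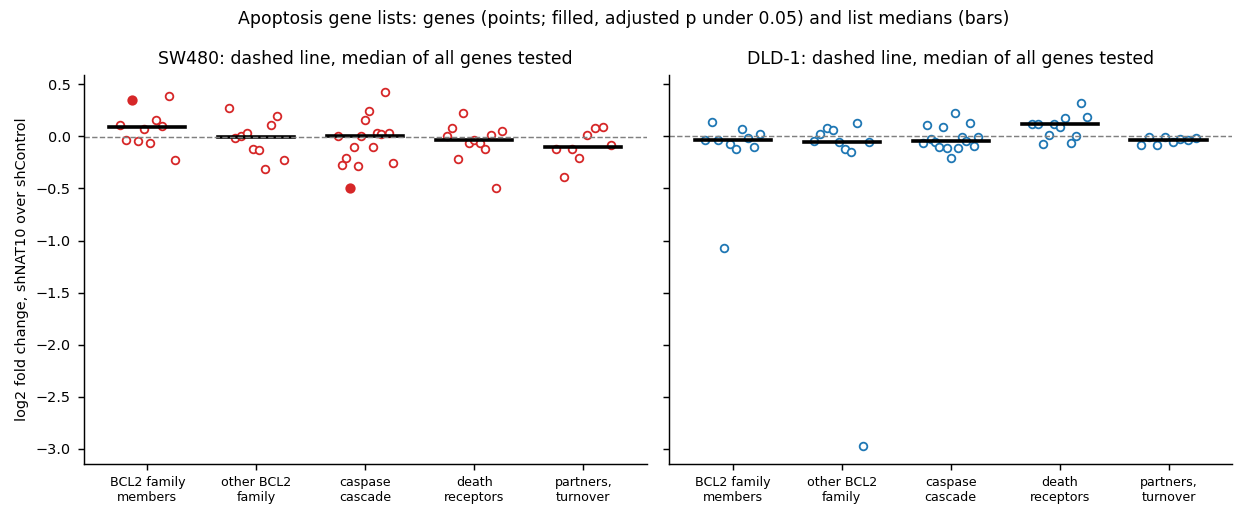
Log2 fold change of shNAT10 over shControl for every tested gene of the family and of the other lists, in SW480 and DLD-1; filled points have an adjusted p under 0.05, bars are list medians and the dashed line is the median of all tested genes. BAX and BIRC3 in SW480 are the filled points; the low points in DLD-1 are BCL2 and HRK, both on at most 10 counts a library.

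Between the shControl groups, many genes of these lists were called, as were 73.8% of all genes. Of the other BCL2 family genes, 5 were higher and 3 lower in DLD-1. BCL2L14 had 0 and 2 counts in SW480 and 357 and 297 in DLD-1, a ratio of 327.5 with a 95% exact counting interval from 90.3 to 2710. HRK was lower by -1.73 ± 0.48 (SE) and BBC3 higher by 1.39 ± 0.12 on the log2 scale. In the caspase list 9 were higher and 4 lower, led by CASP6 at 1.53 ± 0.10 and the apoptosome scaffold APAF1 at 1.22 ± 0.11. In the death receptor list 7 were higher and 3 lower, led by TNFSF10 (TRAIL) at 2.81 ± 0.17, CASP10 at 2.43 ± 0.13 and CASP8, which cleaves BID, at 0.87 ± 0.09. In the partner list 1 was higher and 4 lower, led by HUWE1 at -0.99 ± 0.11, USP9X at -0.69 ± 0.07 and YWHAE, a 14-3-3 protein that holds BAD in the cytosol, at -0.62 ± 0.06. The median log2 fold changes of DLD-1 over SW480 were 0.23, 0.40, 0.33 and -0.17 for the 4 lists in this order.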

How the data were processed

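The authors deposited estimated counts per RefSeq transcript for 8 libraries, not normalized, and FPKM values per library. Per the submitters' processing notes the tools were HISAT2 2.0.4, Bowtie2 2.2.5 and RSEM 1.2.12 with build hg38. Poly(A) RNA was read as single-end 50-base reads on a BGISEQ-500. Columns of averages over samples were not used. Counts of 78953 transcripts were summed per Entrez gene (17309 genes; symbols from RefSeq for 99.2%) and rounded. FPKM values of 14655 transcripts are missing for SW480 shNAT10 replicate 2, so that 5 members have no FPKM there, and FPKM served for levels and alternatives only.

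Genes were filtered with filterByExpr (minimum count 10, minimum total 15), which left 13619. TMM factors scaled the libraries, and edgeR 4.0.16 (R 4.3.3, quasi-likelihood, biological coefficient of variation 0.0585) was fitted over 4 groups. Contrasts were each line, their mean, their difference, and DLD-1 against SW480 shControl. A gene was called at a Benjamini-Hochberg adjusted p under 0.05 over all tested genes. A standard error (SE) is the size of the log2 fold change over the root of its F statistic. Named were NAT10, the 10 members, list genes called after knockdown, and the 3 called list genes with the largest fold change between the shControl groups, of which 1 is not reported here. Other list genes and the transcripts in the text were chosen after their values were seen. The members and lists were chosen with earlier results of these data known.

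Alternatives were DESeq2 1.42.0, upper-quartile normalization, no filter, each line alone, a replicate block, limma 3.58.1 on log2(FPKM + 1) and log2(FPKM + 0.1), leaving out each library, and the limits of the study. Added after seeing the data were limma on the 7 libraries with complete FPKM and loess corrections (span 0.5, degree 2) for GC content and transcript length. Of the tested genes, 99% had a length. Annotation was GENCODE v29 (GRCh38). The fit was also run on simulated counts, with changes larger than that of BAX in SW480, so that run does not bear on its call. Python 3.11.15 with pandas 2.3.3, scipy 1.17.1 and matplotlib 3.10.9 was used. Counting intervals cover counting error only.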

Additional observations from a re-analysis of the deposited data

Results flagged for a closer look

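The effect of shNAT10 on NAT10 itself differed between the lines by the interaction test, with a log2 fold change in DLD-1 minus that in SW480 of 1.16 ± 0.12 (SE, adjusted p = 0.0015 in edgeR). No member of the BCL2 family met that threshold. Groups of 2 libraries were not tested for outlying samples.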

How the results depend on the processing

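In SW480, 1 member was called after knockdown. The count was 0 without the filter on low counts, with each cell line alone, and with the correction for transcript length. It was also 0 with limma on log2(FPKM + 1) or log2(FPKM + 0.1), but these cover 5 members without BAX and say nothing of its call. Limma on the 7 libraries with complete FPKM, which holds BAX, kept the call (0.39, adjusted p = 0.0438). It was 2 under the limits of the study and 3 with a replicate block, under which MCL1 (adjusted p = 0.0154) and BIK (0.0278) were called beside BAX (0.0043). Leaving out a library gave 0 to 2 members there, 0 to 1 for the mean effect and for the difference between lines, and 0 throughout in DLD-1. Where this left 1 library in a group, that library was assumed to vary like the others. Under the limits of the study 2 of 10 members passed in the difference, as did 7.89% of all tested genes. Between the shControl groups, limma on FPKM called 4 of the 5 members with a value, and edgeR called 4 of the same 5. BAX, not called there in the main fit, was called with the correction for transcript length (-0.19, adjusted p = 0.0215 in edgeR). It was also called with limma on the 7 libraries with complete FPKM, at -0.24, a fit that holds 1 library of SW480 shNAT10.

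DESeq2 called BAX in SW480 and gave an adjusted p for 7 of the 10 members there. It gave one for 9 in DLD-1 and for the mean effect and for 5 in the difference, with none called. Over all genes, DESeq2 called 15 in DLD-1 where edgeR called 2, each cell line alone gave 29 in SW480 and 38 in DLD-1, and leaving out a library gave 18 to 2162 in SW480 and 1 to 29 in DLD-1.

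Replicate numbers are shared between groups, but the labels tie them to nothing. Deviations from group means correlated at 0.440 in SW480 and 0.134 in DLD-1, and at 0.302 between the shControl groups of both lines, over 9622 genes. The replicate block raised the calls over all genes from 229 to 1472 in SW480, from 2 to 63 in DLD-1, from 139 to 686 for the mean and from 1 to 112 for the difference.

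Of 57 values of single genes, 19 changed sign under at least 1 alternative, in 43 combinations of value and alternative, and none of the 19 was called. In SW480 the sign turned under the GC content and length corrections for BCL2 (0.00078 and 0.071) and BAD (-0.027 and -0.015), and under that for length for BCL2L11 (0.011). In DLD-1 it turned for BAX (0.068) and BID (0.0032) with limma on 7 libraries, for BID also on 8 libraries (0.0032 and 0.0033), and for BAD with the length correction (0.0055). For the mean effect it turned for BCL2L1 with upper-quartile normalization (0.00088), DESeq2 (0.0033) and limma on 7 libraries (0.022), and for BAD with the GC content and length corrections (-0.045 and -0.0048). For the difference it turned for BCL2 (0.0086) and BCL2L11 (0.19) with limma on 7 libraries and for BAD with the length correction (0.021). Between the shControl groups it turned for BCL2L11 with limma on 7 libraries (-0.020) and for NAT10 with the length correction (0.0049). The cause was not tested.

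Leaving out 1 library in turn crossed 0 in SW480 for BCL2 (-0.12 to 0.034), BAK1 (-0.085 to 0.023), BAD (-0.10 to 0.29) and BCL2L11 (-0.17 to 0.046). In DLD-1 it did so for BCL2L1 (-0.16 to 0.012), MCL1 (-0.022 to 0.076), BID (-0.043 to 0.023), BAD (-0.094 to 0.024), BCL2L11 (-0.26 to 0.0045) and BIK (-0.24 to 0.073). It did so for the mean effect of BCL2L1 (-0.042 to 0.048) and BAD (-0.065 to 0.13), and for the difference of BCL2L12 (-0.17 to 0.0010), BAD (-0.33 to 0.074) and BCL2L11 (-0.20 to 0.067). The depth of 3 to 10 counts limits BCL2 in DLD-1.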
